A study of Homo sapiens and Homo sapiens
Mus musculus and Mus musculus with 9 samples.

Results

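The genes described here are 40 genes of the integrated stress response and of endoplasmic reticulum (ER) stress. They were taken from the deposited table by gene symbol, and all 40 were found among 41713 gene identifiers. They comprise 8 transcription factors and regulators, 5 stress effectors, 8 enzymes of serine, asparagine, proline and one-carbon metabolism, 3 amino acid transporters, a group of 3 made of the ER stress sensors ATF6 and ERN1 with the transcription factor XBP1, and 13 ER chaperones and factors of ER-associated degradation.

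RNA was sequenced from C4-2B, a human prostate cancer cell line derived from a bone metastasis of an LNCaP subline, grown alone (3 libraries), from C4-2B mixed with MC3T3-E1 mouse osteoblasts in a 1 to 30 ratio (3 libraries), and from MC3T3-E1 alone (3 libraries). The labels give every cell line as wild type and in alpha-MEM with serum. The study's methods give the co-cultured C4-2B as a line labelled with GFP by lentivirus, which the labels do not mention, and each group rests on a single cell line or a mixture of both lines. The table holds, for each human gene, 1 mean over the 6 libraries of C4-2B alone and of the co-culture, made in 3 pipelines that separate human from mouse reads in different ways. A mean pools both groups with equal weight for each library, so the values below are levels over both conditions together. No difference between co-culture and C4-2B alone was tested, the means are given with no spread between replicates, since the columns of the authors' comparison that bear on it were not used, and the depth of each library is not analysed here.

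In the integrated stress response, kinases that sense missing amino acids, misfolded ER proteins and other stresses phosphorylate the initiation factor eIF2. General translation then falls while the mRNA of the transcription factor ATF4 is translated, and ATF4 turns on genes for amino acid synthesis and import. The unfolded protein response of the ER uses the sensors ATF6 and IRE1 (encoded by ERN1), of which IRE1 splices the XBP1 mRNA, and these raise chaperones such as HSPA5, also called BiP.

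Promoter matches to the elements that the unfolded protein response and ATF4 are known for are printed first. The genes and the elements were both chosen from knowledge of these responses, so the counts below are no independent test. Windows of 250 bases before to 50 bases after each start were taken from RefSeq (GRCh38.p14), and 35 of the 40 genes had one, all but ALDH1L2, NUPR1, PSPH, PYCR1 and SHMT2. The ER stress response element was searched on both strands as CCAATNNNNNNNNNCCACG, bound by NF-Y together with ATF6. It was present in 7 of the 35 genes, against 0.0916% of 27305 genes with a window. These were 6 of the ER chaperone group and XBP1. The capitals mark the matched letters, read 5′ to 3′ on the strand that holds them.
HSPA5, chr9:125241386-125241414, minus strand: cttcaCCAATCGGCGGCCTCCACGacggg
HSP90B1, chr12:103930211-103930239, plus strand: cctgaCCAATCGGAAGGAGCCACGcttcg
HSP90B1, chr12:103930316-103930344, minus strand: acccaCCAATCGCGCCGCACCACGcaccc
CALR, chr19:12938379-12938407, minus strand: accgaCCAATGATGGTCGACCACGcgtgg
CANX, chr5:179698773-179698801, plus strand: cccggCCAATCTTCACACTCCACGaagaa
PDIA6, chr2:10812848-10812876, minus strand: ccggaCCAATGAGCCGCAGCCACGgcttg
CRELD2, chr22:49918549-49918577, minus strand: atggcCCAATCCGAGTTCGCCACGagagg
XBP1, chr22:28800598-28800626, minus strand: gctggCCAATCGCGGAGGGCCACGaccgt

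A shorter form of the element, ATTGG and CCACG with 1 base of any kind between them, was searched likewise and found in 2 further genes of the ER group and in 0.0696% of all genes with a window. These were HERPUD1, which helps to degrade misfolded ER proteins, and SDF2L1, a luminal ER protein.
HERPUD1, chr16:56932020-56932040, plus strand: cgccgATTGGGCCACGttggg
SDF2L1, chr22:21642109-21642129, minus strand: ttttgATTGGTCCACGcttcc

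The composite element that ATF4 binds with C/EBP factors was searched only as TGATGNAAT, with the last base fixed as T. Forms that end in another base were not searched, so the count does not cover all forms of the element. The searched form was present in 1 of the 35 genes, FGF21, and in 1.22% of all genes with a window. A match is a description of the letters and no evidence of binding, and the absence of a match says only that these letters are not in this window.
FGF21, chr19:48755464-48755482, minus strand: ctcccTGATGCAATcctgg

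The ER chaperones included the most abundant of the 40 genes. In the Xenome pipeline the mean was 55510 scaled counts for HSP90B1, the ER form of HSP90, 51476 for CALR and 44423 for CANX, the lectin chaperones that fold glycoproteins, and 40294 for HSPA5. Per kilobase of the canonical transcript, CALR stood at 27079 and HSP90B1 at 19953, in the 99.6 and 99.4 percentile of 13327 protein-coding genes. HSPA5 stood at 10277, CANX at 9038 and the protein disulfide isomerase PDIA4 at 8258 per kilobase. At the lower end of the chaperone group, EDEM1, which hands misfolded glycoproteins to degradation, stood at 566 per kilobase and DNAJB9, a co-chaperone of HSPA5, at 668, both still above the protein-coding median of 361.0 per kilobase.

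The transcription factor XBP1 stood at 4199 per kilobase, and the ER stress sensors ATF6 and ERN1 at 389 and 221. XBP1 was thus in the range of the chaperones, whereas ATF6 lay near and ERN1 below the protein-coding median. The 3 deposited means of XBP1 were 7520 in Xenome, 7525 in XenofilteR and 7416 in Kallisto scaled counts, and hold no information on its spliced form.

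**Figure D1:**
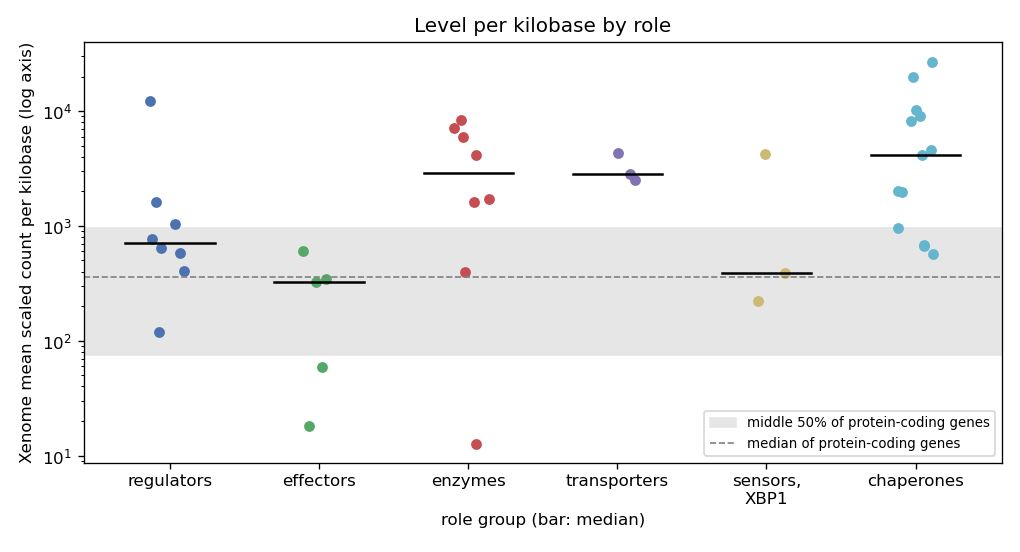
Xenome mean scaled count per kilobase of canonical transcript (log axis) of each of the 40 genes by role, with the median of each role as a bar. The dashed line is the median of protein-coding genes, 361.0, and the grey band their middle part. CALR is the highest point and ALDH1L2, at 12.7, the lowest.

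ATF4 itself was the most abundant regulator, with 17327 scaled counts in Xenome and 12211 per kilobase. Its relative ATF5 stood at 1614 per kilobase and ATF3 at 408. TRIB3, a pseudokinase that restrains ATF4 activity, stood at 1041, CEBPB at 769, DDIT3 (CHOP, a factor of stress-linked cell death) at 640.0, and NUPR1, a small chromatin protein, at 584. PPP1R15A (GADD34), which recruits the phosphatase that restores eIF2, was the lowest regulator at 119 per kilobase.

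The stress effectors had a median of 324 per kilobase, that of SESN2, an inhibitor of mTORC1 on leucine loss, and the group of ATF6, ERN1 and XBP1 one of 389. Per kilobase of all exon bases the order of these medians turned, with 258 for the effectors and 204 for that group. DDIT4 (REDD1), another mTORC1 inhibitor, stood at 603, CHAC1, which breaks down glutathione, at 348, and VLDLR, a lipoprotein receptor, at 59.3. FGF21, a hormone secreted mainly by liver, had the lowest mean of the 40 genes before division by length, with 24.2 scaled counts in Xenome, 24.2 in XenofilteR and 25.1 in Kallisto. Per kilobase it stood at 18.0, above ALDH1L2.

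Enzymes of serine synthesis were high. PHGDH, the first enzyme of the pathway, stood at 8428 per kilobase in Xenome, PSAT1, the second, at 7096, and PSPH, the last, at 1605. The order of PHGDH and PSAT1 depends on the length used. PHGDH has 1866 bases in the canonical transcript but 9187 over all exons, whereas PSAT1 has 2206 in both. Per kilobase of all exon bases PHGDH was far below PSAT1. SHMT2, which passes the serine carbon to folate in mitochondria, stood at 5949, the proline enzyme PYCR1 at 4111 and MTHFD2, the next mitochondrial folate enzyme, at 1714. ALDH1L2, a mitochondrial folate enzyme that oxidises 10-formyltetrahydrofolate, was lowest at 12.7 per kilobase. The transporters lay close together, at 4336 per kilobase for SLC3A2 (CD98 heavy chain), 2836 for the arginine carrier SLC7A1 and 2512 for SLC7A5 (LAT1, the partner of SLC3A2). Their order also depends on the length used. SLC3A2 has 1885 bases in the canonical transcript but 6392 over all exons, and per kilobase of the latter it was the lowest transporter.

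The 11 amino acid and one-carbon genes, enzymes and transporters together, had a median of 2836 per kilobase and the 13 ER chaperones one of 4146, against 361.0 for protein-coding genes. With Kallisto means the medians were 4110 and 4492, against 406.4 for protein-coding genes. Both sets ranged over more than an order of magnitude, and their ranges overlapped.

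Xenome and XenofilteR gave like means for the 40 genes, while Kallisto gave a far higher one for ASNS. Between XenofilteR and Xenome, 0 of the 40 genes differed by at least 1.2-fold, as against 0.688% higher and 0.234% lower among 13229 protein-coding genes with a mean of at least 10 in each pipeline. The widest was PHGDH with 15727 scaled counts in Xenome, 18361 in XenofilteR and 18230 in Kallisto, followed by SHMT2 with 12832, 13430 and 13520. For the remaining genes the ratio of XenofilteR to Xenome ran from 0.991 (DDIT4 and ATF4) to 1.03 (PDIA6).

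Kallisto means were at least 1.2-fold above the Xenome means for 6 of the 40 genes, and at least 1.2-fold below for 0. Among the protein-coding genes compared, 21.7% were higher and 3.21% lower by that fold. The share of the 40 genes was thus not above the background. The 6 genes were ASNS, DDIT4, VLDLR, PDIA6, ALDH1L2 and PYCR1. Of these, 3 of 11 belonged to the amino acid and one-carbon genes and 1 of 13 to the ER chaperones. The median ratio was 1.09 in the former and 1.02 in the latter, and 1.02 over the protein-coding genes compared.

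ASNS, asparagine synthetase and a standard readout of ATF4 activity, had 949 scaled counts in Xenome, 958 in XenofilteR and 12477 in Kallisto, a ratio of 13.2 between Kallisto and Xenome. Per kilobase it moved from 398 in Xenome, near the protein-coding median, to 5232 in Kallisto, between PYCR1 (4938) and PDIA6 (5957) on the same Kallisto scale. The level of ASNS therefore cannot be read from these files without naming the pipeline. In GENCODE release 44, 49.3% of its exon bases also belong to exons of another gene on the same strand, the long non-coding gene ENSG00000284707 (chr7:97851688-97972985, minus strand). That gene was listed at 29.1 scaled counts in Xenome and 32.2 in XenofilteR and has no Kallisto value.

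Across the protein-coding genes compared, the ratio of Kallisto to Xenome rose with such overlap. It had a median of 1.01 in 10786 genes without overlap on the same strand, of 1.25 in 509 genes with 10 to 25% of exon bases shared, of 2.03 in 315 genes with 25 to 50%, and of 4.80 in 278 genes above that. PYCR1 (14.1% shared, with MYADML2) had a ratio of 1.201 and NUPR1 (16.5% shared, with a long non-coding gene) one of 1.08. DDIT4 with 1.65, VLDLR with 1.47, PDIA6 with 1.44 and ALDH1L2 with 1.21 had no exon base shared on the same strand. With either strand counted, the shared percentage was 25.2% for PDIA6, 8.24% for VLDLR, 2.91% for ALDH1L2 and 0% for DDIT4. The part of overlap in any of these ratios was not tested.

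**Figure D2:**
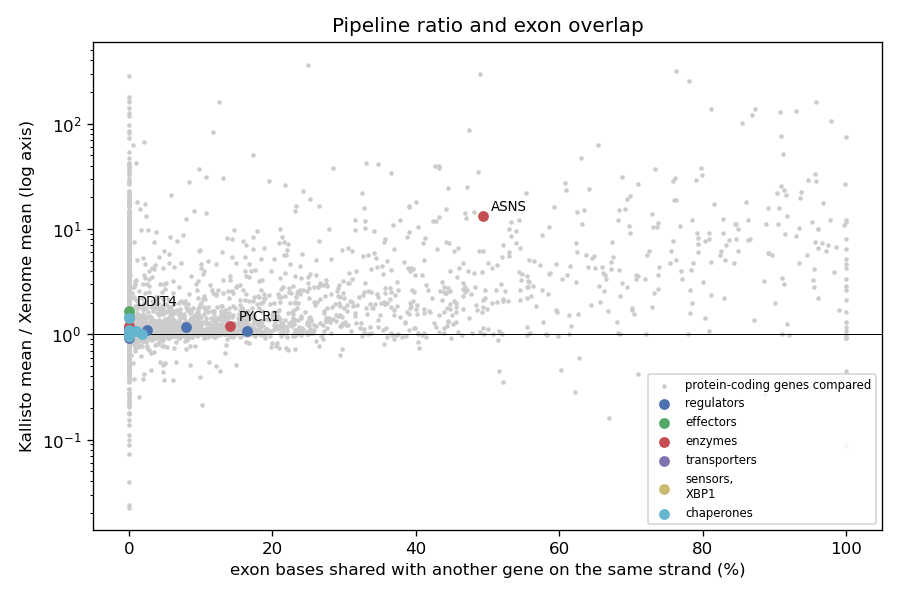
Ratio of Kallisto to Xenome mean (log axis) against the percentage of exon bases shared with another gene on the same strand. Grey points are those of the 13229 protein-coding genes compared that have an overlap value, and coloured points the 40 genes by role. ASNS, at 49.3% and 13.2, stands far above the other 39 genes.

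The other genes past 1.2-fold moved less. DDIT4 had 1052 scaled counts in Xenome and 1736 in Kallisto. VLDLR had 546 and 802. PDIA6, a disulfide isomerase that also dampens IRE1, had 9449 and 13576, the only chaperone with such a difference. PYCR1 had 9327 and 11204, and ALDH1L2 had 94.5 and 114. Between PYCR1 (1.201) and ALDH1L2 (1.21) just inside the limit and DDIT3 (1.17) just outside it, the ratios form no gap.

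**Figure D3:**
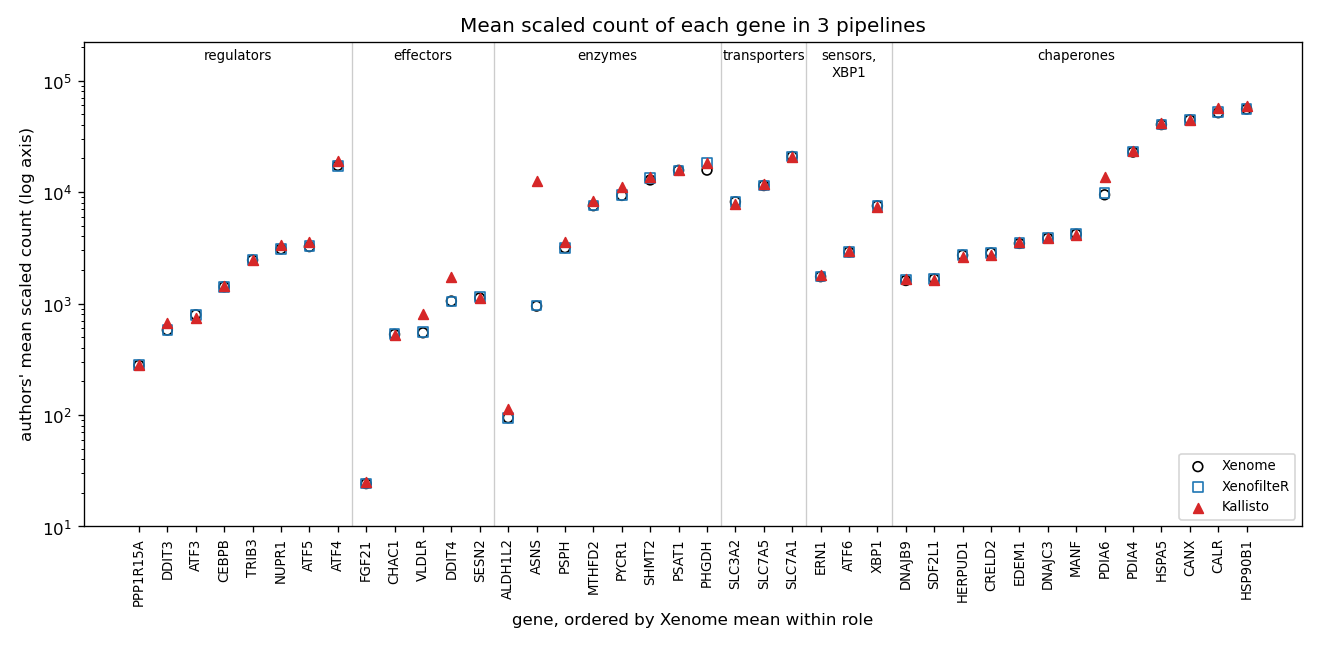
Deposited mean scaled count (log axis) of each of the 40 genes in Xenome (circles), XenofilteR (squares) and Kallisto (triangles), ordered by Xenome mean within each role. The 3 symbols lie on each other for most genes and part widely for ASNS, with 949, 958 and 12477.

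Sequence shared with mouse was scarce in these genes. The percentage of a gene's 31-base words that also occur in mouse transcripts (GENCODE release M21) had a median of 0.724% over the 40 genes and 0.646% over the protein-coding genes compared. It was highest for DNAJB9 with 3.47%, DDIT4 with 3.46% and SHMT2 with 3.35%. PHGDH had 1.19%. DNAJB9 had 1609 scaled counts in Xenome and 1645 in XenofilteR. The part of shared sequence in the pipeline ratios was not tested.

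The wider lists of the same pathways are given beside the share of all protein-coding genes compared that differed by 1.2-fold in either direction between Kallisto and Xenome, 24.9%. The 20 cytosolic aminoacyl-tRNA synthetases, which charge tRNAs and include ATF4 targets, had a median of 3642 per kilobase, and 0 of 20 differed by that fold. Of the 27 other ATF4 targets, SLC7A3 had no Xenome value. The rest had a lower median than the 11 amino acid and one-carbon genes, 1015 per kilobase, and 4 of 26 above the minimum mean passed that fold. Of these, SLC25A32, a mitochondrial folate carrier, had 175 scaled counts in Xenome and 1868 in Kallisto with 69.7% of exon bases shared on the same strand. CCPG1, an ER-phagy receptor, had 664 and 2816 with 38.9% shared. CBS, which makes cystathionine from homocysteine, had 1502 and 10983 with none shared on the same strand. The amino acid carrier SLC1A5 had 5629 and 7439, also with none. The measure covers exon bases at the same position and not similar sequence elsewhere in the genome. The 11 genes of eIF2, its kinases, phosphatase and exchange factor had a median of 1302 with 1 of 11 past it. A list of 25 other ER genes, which beside chaperones and isomerases holds genes of degradation, translocation and export such as SYVN1, SEC61B and SEC24D and the transcription factor CREB3L2, had a median of 1174 with 5 of 25 past it. The widest was the disulfide isomerase TXNDC5 with 469 scaled counts in Xenome and 11063 in Kallisto, 60.9% of whose exon bases are shared. PPIB, an ER prolyl isomerase, had 12099 and 23677 with none shared on the same strand. The genes named with values from these wider lists were chosen after their values were seen.

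Markers of the cell types were checked over the same means. Of the prostate markers planned, 9 were found, with means from 4603 (TMPRSS2) to 51038 (KLK3) scaled counts in Xenome. KLK2, also planned, has no value here. Of 14 osteoblast and mesenchymal markers 6 had a mean of at least 10 in each pipeline. COL1A1 stood at 3384 in Xenome, 4557 in XenofilteR and 2471 in Kallisto, COL3A1 at 43.9, 389 and 84.1, COL1A2 at 45.0, 264 and 222, and SPARC at 71.96, 142 and 142. RUNX2 at 411, 400 and 385 and COL5A2 at 277, 274 and 284 were close in all 3 pipelines. DCN was at 0.966 in Xenome and 0.966 in XenofilteR but at 64.6 in Kallisto, while ALPL and LUM were below 1 in each. The part of mouse reads in the means of the 40 genes was not tested.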

How the data were processed

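Human reads were separated from mouse reads by the authors in 3 ways. For Xenome, human reads were kept before alignment to GRCh38 with HISAT2. For XenofilteR, reads were aligned to both genomes and mouse reads removed, and both were counted with featureCounts. Kallisto used joined human and mouse GENCODE transcripts. Versions and strand settings are not given in the sources used here. The deposited values used are the authors' DESeq2 base means: counts divided by size factors and averaged over 6 libraries. The deposited columns of fold changes, standard errors, statistics and p-values of the authors' comparison were read during exploration but enter no value given here, and so no contrast between groups was made. A recovery of reads per library from the means was tried and set aside, and the limma fit planned on it was not run, because the libraries could not be placed in groups without those columns.

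Distinct identifiers were kept from 41734 rows. Ratios between pipelines used protein-coding genes with a mean of at least 10 in each, and a fold of 1.2 chosen after the values were seen. Levels per kilobase used the canonical transcript of GENCODE release 44 (GRCh38), and 28 of 40 genes have the same start and end there as in the table. Exon overlap and shared 31-base words came from the same annotation and GENCODE M21. The release the authors used is not given. The genes and lists were chosen with earlier results of these data known. Named genes were to be those past a threshold of the planned test, so all 40 are described instead. Python 3.11.15 and pandas 2.3.3 were used.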

Additional observations from a re-analysis of the deposited data

How the results depend on the processing

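No paired analysis was possible because the deposited means carry no replicate. None of the alternatives planned at first was run, since each concerned the fit between groups or the reads per library. The following were chosen after seeing the data. With a fold of 1.5, 2 of the 40 genes (ASNS and DDIT4) were past the limit in place of 6, and 14.5% in place of 24.9% of all protein-coding genes compared. With XenofilteR in place of Xenome, 5 of the 40 were past it and 24.3% of all compared. With a mean of at least 50, 6 of 39 were, against 20.0%, and with all biotypes 6 of 40, against 24.9%. The median ratio of Kallisto to Xenome in the amino acid and one-carbon genes was 1.02 against XenofilteR in place of 1.09. Per kilobase of all exon bases in place of the canonical transcript, the medians were 1712 for the amino acid and one-carbon genes, 1761 for the ER sensors, XBP1 and chaperones and 1956 for the chaperones, against 220.4 for protein-coding genes. With Kallisto means they were 4110 for the amino acid and one-carbon genes, 3058 for the ER sensors, XBP1 and chaperones and 4492 for the chaperones. The order of the first pair thus turned, since Xenome gave 2836 and 3077. Each list stayed above the protein-coding median in these settings, which was 406.4 with Kallisto means. What limits all values is that the means are used here without an error.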
